A study of Mus musculus with 23 samples.

Results

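Co-stimulatory and activation surface molecules are the proteins by which an activated macrophage signals to T cells, B cells and other leukocytes. The 10 genes *Cd40*, *Cd80*, *Cd86*, *Cd83*, *Cd69*, *Cd274*, *Pdcd1lg2*, *Cd38*, *Slamf1* and *Slamf7* were chosen by name, with earlier results of these data known. Their probes were found through the transcript accession that the scanner files list for each spot. All 10 were on the array, with 11 probes in total, among 25998 genes and unnamed transcripts that were tested. The transcripts were NM_011611 for *Cd40*, NM_009855 for both probes of *Cd80*, NM_019388 for *Cd86*, NM_009856 for *Cd83*, NM_001033122 for *Cd69*, NM_021893 for *Cd274*, NM_021396 for *Pdcd1lg2*, NM_007646 for *Cd38*, NM_013730 for *Slamf1* and NM_144539 for *Slamf7*. RNA came from bone marrow-derived macrophages (BMDM) of male C57BL/6 mice of 3 genotypes, namely wt mice aged 12 to 13 weeks, MK2-/- mice aged 10 to 13 weeks that lack the p38 MAPK-activated kinase MK2, and MK2/3-/- mice aged 11 to 14 weeks that lack both MK2 and its relative MK3. Cells of every genotype were grown with M-CSF, a growth factor that turns marrow precursors into macrophages, and were then kept in culture medium alone or treated with 100 ng/ml LPS, a cell wall component of Gram-negative bacteria, for 120 min. The 6 groups held 23 arrays, 4 in each group and 3 for untreated MK2-/- BMDM. The deletions are present in the whole animal, so the marrow precursors lacked the kinases as well.

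LPS is sensed by Toll-like receptor 4, and the signal reaches NF-κB, the MAP kinases and the interferon regulatory factors. T cells need a second signal beside antigen, and CD80 and CD86 deliver it through CD28, whereas the same ligands restrain T cells through CTLA-4. CD40 receives the CD40 ligand of helper T cells, and the programmed death ligands CD274 (PD-L1) and PDCD1LG2 (PD-L2) bind the inhibitory receptor PD-1. CD83 is a maturation marker of antigen-presenting cells that stabilizes MHC class II and CD86 at the surface, CD69 is an early activation marker that binds and retains the sphingosine 1-phosphate receptor S1PR1, CD38 is an ectoenzyme that consumes NAD, and SLAMF1 and SLAMF7 are self-binding receptors of the SLAM family.

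The signal of each spot is given as a quantile-normalized log2 value, in which 1 unit is a factor of 2, and a signal is called detected where the scanner software marked it as well above background. Between 47.5% and 69.1% of all probes were detected on an array. All 6 measured macrophage markers were detected on every array. An array detected 3 to 5 of 6 dendritic cell markers, 1 to 3 of 5 B cell markers, 1 to 4 of 6 T and NK cell markers, 4 to 5 of 5 neutrophil markers and 2 to 4 of 4 stromal and endothelial markers. *Mapkapk2*, the gene of MK2, differed from wt by -2.81 ± 0.25 (log2 difference ± SE) in MK2-/- and by -3.01 ± 0.25 in MK2/3-/- BMDM after LPS, and *Mapkapk3*, the gene of MK3, by -3.30 ± 0.17 in MK2/3-/- BMDM, with the remaining signal of both above background. The arrays of each genotype lay on a slide of their own, so that genotype and slide cannot be told apart, and all medium arrays lay in 1 row of the slide and all LPS arrays in the other, so that position and treatment cannot be told apart either.

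In wt BMDM, 7 of the 10 genes rose after LPS (limma, Benjamini-Hochberg adjusted p under 0.05) and none fell, counting *Cd80* by 1 of its probes, whereas 8.26% of all genes tested rose and 17.2% were called in either direction. In MK2-/- BMDM 7 rose and 1, which was not above background, was called lower, with 8.5% of all genes rising, 10.1% falling and 18.6% called. In MK2/3-/- BMDM 8 rose and none fell, with 11.9% of all genes rising and 24.9% called. For the 10 genes the median log2 change was 2.60 in wt cells, 2.67 with MK2 deleted and 3.55 with both kinases deleted, against 0.0050, -0.011 and -0.024 over all genes. The LPS and medium arrays did not overlap for 7, 9 and 8 of the 10 genes, compared with 22.9%, 32.8% and 26.4% of all genes. Because the genes were chosen with earlier results of these data known, these counts and medians describe the set and do not test it. Of the dendritic cell markers, *Zbtb46* rose with LPS by 5.49 ± 0.32 and *Ccr7* by 3.21 ± 0.93 in wt BMDM. *Flt3* (group means 5.57 in medium and 5.63 after LPS) and *Itgax* (11.65 and 11.82) were not called, and *Xcr1* and *Clec9a* were not detected there. The sum of the 6 (linear signal) ranged from 1830 to 8310 on medium arrays and from 3556 to 10347 on LPS arrays. The macrophage markers *Mertk* and *Fcgr1* fell by 1.69 ± 0.50 and 1.27 ± 0.31. *Adgre1* (group means 15.55 in medium and 15.57 after LPS), *Itgam* (7.26 and 7.41), *Csf1r* (18.57 and 18.39) and *Lyz2* (17.24 and 16.73) were not called. The part of the marker shifts in the results was not tested. Whether a change in a bulk sample reflects more RNA per cell or a different share of cells cannot be told apart.

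**Figure D1:**
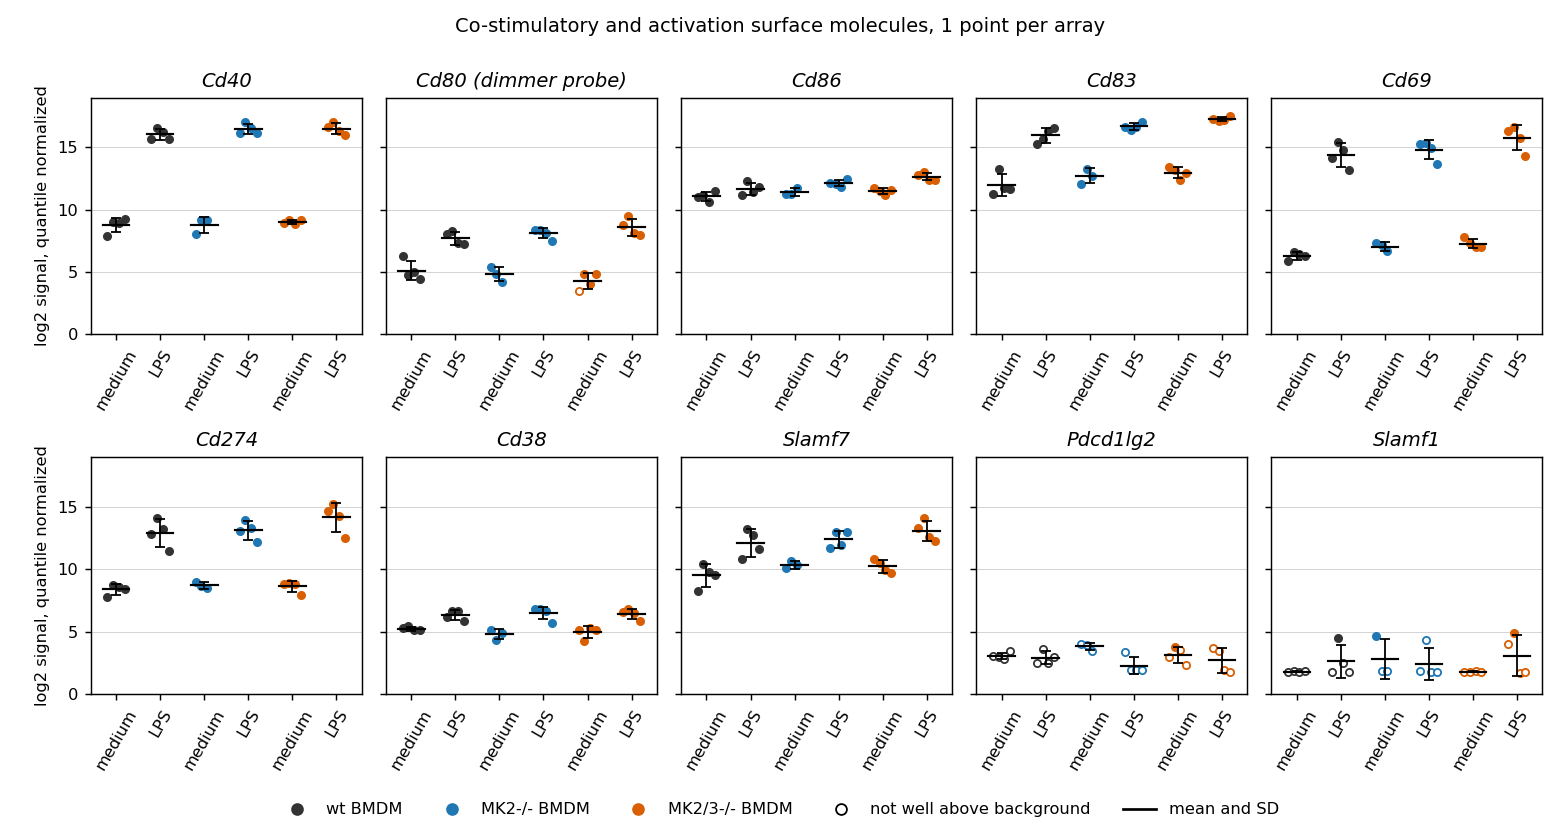
Quantile-normalized log2 signal of the 10 genes on each of the 23 arrays, in medium and after LPS in wt, MK2-/- and MK2/3-/- BMDM. Each point is 1 array, open points were not well above background, and lines give the mean ± SD of a group. *Cd40*, *Cd69*, *Cd274*, *Cd83* and the dimmer probe of *Cd80* are higher on all LPS arrays than on all medium arrays, while *Pdcd1lg2* and *Slamf1* stay at or near background.

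*Cd40*, the receptor for the helper T cell signal, showed the second-largest increase of the 10 in each genotype. On the 4 wt arrays its log2 signal was 7.91, 8.99, 8.93 and 9.28 in medium and 15.70, 16.61, 16.21 and 15.68 after LPS (replicates 1 to 4). MK2-/- BMDM gave 8.04, 9.16 and 9.18 in medium and 16.17, 17.01, 16.59 and 16.14 after LPS, and MK2/3-/- BMDM gave 8.90, 9.15, 8.89 and 9.18 in medium and 16.65, 17.04, 16.29 and 16.04 after LPS. Every LPS array lay above every medium array, and the LPS arrays of the 3 genotypes overlapped. The log2 increase was 7.27 ± 0.32 in wt (154-fold, adjusted p = 4.9e-12), 7.68 ± 0.35 in MK2-/- (205-fold) and, for MK2/3-/- BMDM, 7.48 ± 0.32 (178-fold).

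*Cd69*, the early activation marker, showed the largest increase of the 10 in each genotype. Untreated wt BMDM read 5.87, 6.59, 6.41 and 6.29, MK2-/- BMDM 7.33, 7.14 and 6.66 and MK2/3-/- BMDM 7.80, 7.30, 7.03 and 6.99. LPS-treated wt BMDM read 14.17, 15.41, 14.77 and 13.16, MK2-/- BMDM 15.29, 15.34, 14.95 and 13.68 and MK2/3-/- BMDM 16.35, 16.61, 15.77 and 14.35. The medium arrays of both knockouts lay above all wt medium arrays, and after LPS the fourth replicate was the lowest array of each genotype. The log2 increase was 8.09 ± 0.48 in wt (272-fold, adjusted p = 3.3e-10), 7.77 ± 0.52 in MK2-/- (218-fold) and, for MK2/3-/- BMDM, 8.49 ± 0.48 (360-fold).

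*Cd83*, the maturation marker, and *Cd274* rose in every genotype, by a smaller factor than *Cd40* and *Cd69*. For *Cd83*, the wt arrays read 11.29, 13.30, 11.74 and 11.64 in medium and 15.30, 15.71, 16.36 and 16.59 after LPS. The LPS arrays read 16.65, 16.43, 16.62 and 17.06 in MK2-/- and 17.32, 17.14, 17.19 and 17.55 in MK2/3-/- BMDM, so the fourth replicate was the highest of each genotype, unlike for *Cd69*. *Cd83* increased by 4.00 ± 0.37 in wt BMDM on the log2 scale (16.0-fold, adjusted p = 2.0e-07), by 3.97 ± 0.40 with MK2 deleted and by 4.33 ± 0.37 with both kinases deleted. *Cd274*, the ligand of PD-1, read 7.79, 8.78, 8.56 and 8.45 in medium and 12.86, 14.13, 13.22 and 11.44 after LPS in wt BMDM. LPS-treated MK2-/- BMDM read 13.11, 13.99, 13.30 and 12.17, and MK2/3-/- BMDM 14.70, 15.24, 14.26 and 12.51. The spread among replicates after LPS was wide for this gene, with an SD of 1.12, 0.75 and 1.18 in wt, MK2-/- and MK2/3-/- BMDM, and the second replicate was the highest and the fourth the lowest in all 3 genotypes. *Cd274* increased by 4.52 ± 0.54 in wt BMDM (22.9-fold, adjusted p = 5.0e-06), by 4.43 ± 0.59 with MK2 deleted and by 5.53 ± 0.54 with both kinases deleted.

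**Figure D2:**
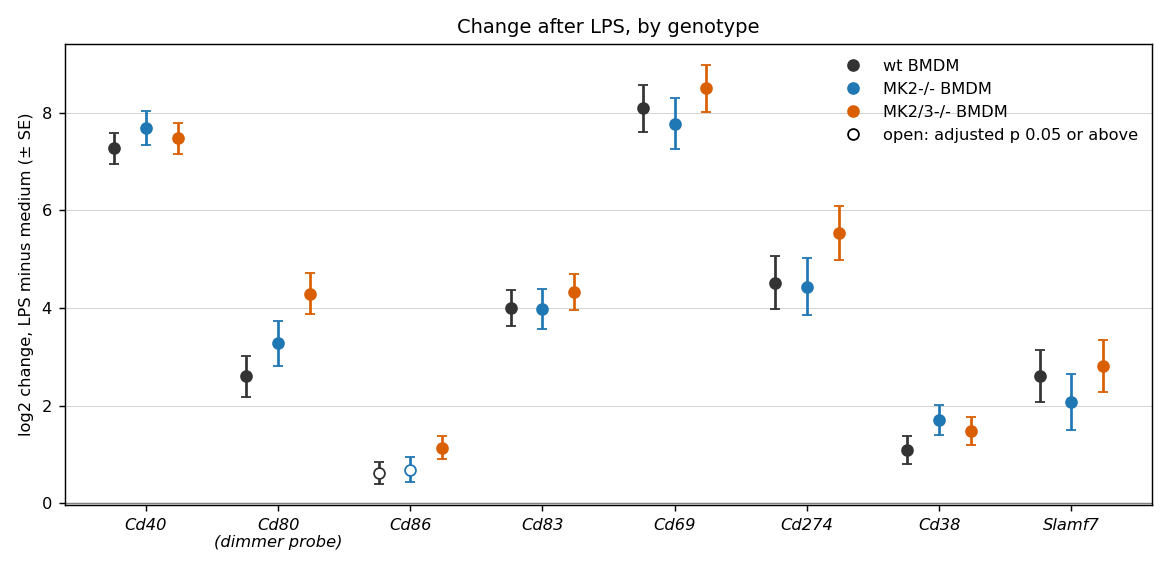
Log2 change after LPS (LPS minus medium, ± SE of the fit) of the 8 detected genes in wt, MK2-/- and MK2/3-/- BMDM, with filled points for an adjusted p under 0.05. *Cd69* and *Cd40* change by 7.27 to 8.49 and *Cd86* by 0.62 to 1.13, and *Cd86* is open in wt and MK2-/- BMDM.

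*Cd86*, a ligand of CD28, showed the smallest change of the 8 detected genes in the model of all arrays, counting *Cd80* by its dimmer probe. In MK2/3-/- BMDM this rank depended on the processing. There the *Cd38* increase was as low as 0.71 among the alternatives, whereas that of *Cd86* was 1.01 or more in all of them. Untreated wt BMDM read 11.06, 11.17, 10.60 and 11.49, MK2-/- BMDM 11.30, 11.24 and 11.79 and MK2/3-/- BMDM 11.72, 11.53, 11.23 and 11.58. LPS-treated wt BMDM read 11.19, 12.30, 11.47 and 11.84, MK2-/- BMDM 12.11, 12.10, 11.85 and 12.46 and MK2/3-/- BMDM 12.77, 13.01, 12.41 and 12.40. Medium and LPS arrays overlapped in wt but not in the knockouts, and within each culture with both arrays the LPS value was the higher one in 4 of 4 wt, 3 of 3 MK2-/- and 4 of 4 MK2/3-/- cultures. The log2 change was 1.13 ± 0.23 in MK2/3-/- BMDM (2.19-fold, adjusted p = 0.00108) and was called there. Without passing the threshold wt BMDM gave 0.62 ± 0.23 (adjusted p = 0.0802) and MK2-/- BMDM 0.69 ± 0.25 (adjusted p = 0.0654). With the culture as a block, that is with medium and LPS arrays of the same culture treated as related, the increase was called also in wt cells (adjusted p = 0.0289) and in cells without MK2 (adjusted p = 0.0213). The response of MK2/3-/- BMDM exceeded that of wt by 0.51 ± 0.33 without the block (adjusted p = 1.00), so that a difference in response was not shown.

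The direction for *Cd80*, the other ligand of CD28, depended on the probe, although both probes are listed for the same transcript. The dimmer probe, used in all counts because it had the higher LPS induction in wt BMDM, so that its choice rests on the contrast described, read 6.26, 4.78, 5.00 and 4.46 in medium and 8.02, 8.30, 7.31 and 7.25 after LPS in wt BMDM. The brighter probe read 12.56, 12.58, 12.55 and 12.12 in medium and 11.09, 11.35, 10.50 and 11.16 after LPS in the same RNA. On the dimmer probe every LPS array lay above every wt medium array, and on the brighter probe every LPS array lay below. The dimmer probe increased by 2.60 ± 0.42 in wt BMDM (6.06-fold, adjusted p = 0.000161), by 3.27 ± 0.46 with MK2 deleted and by 4.29 ± 0.42 with both kinases deleted. The brighter probe changed by -1.43 ± 0.26 in wt BMDM (2.69-fold lower, adjusted p = 0.000483), while MK2-/- BMDM gave -0.91 ± 0.28 (adjusted p = 0.0259) and MK2/3-/- BMDM -1.25 ± 0.26 (adjusted p = 0.00107). Both probes were detected on every array, apart from the dimmer probe on 1 MK2/3-/- medium array. The mean of both probes changed by 0.59 in wt BMDM (adjusted p = 0.224). No direction is therefore given for *Cd80* as a gene.

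**Figure D3:**
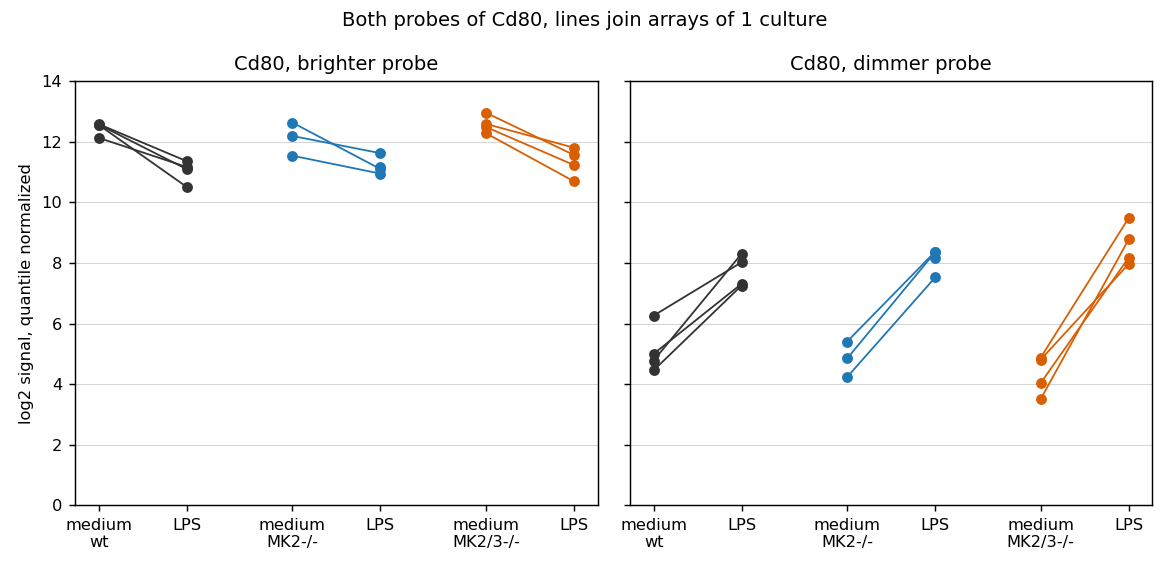
Quantile-normalized log2 signal of the brighter (left) and the dimmer probe (right) of *Cd80* in medium and after LPS, with 1 point per array and lines joining arrays of the same culture. The brighter probe falls and the dimmer probe rises in each of the 11 cultures with both arrays.

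*Slamf7*, an adhesion receptor of macrophages and lymphocytes, ranged from 8.26 to 10.46 in medium and from 10.83 to 13.27 after LPS in wt BMDM. It increased by 2.61 ± 0.53 in wt BMDM (6.09-fold, adjusted p = 0.00145), by 2.07 ± 0.57 with MK2 deleted (adjusted p = 0.0146) and by 2.80 ± 0.53 with both kinases deleted. *Cd38*, the NAD-consuming ectoenzyme, ranged from 5.10 to 5.42 in wt medium and from 5.87 to 6.66 after LPS in wt BMDM. Its increase was 1.09 ± 0.28 (2.13-fold, adjusted p = 0.00948), against 1.71 ± 0.30 with MK2 deleted and 1.48 ± 0.28 with both kinases deleted, and medium and LPS arrays did not overlap in any genotype. The *Cd38* increase stayed called under all alternatives of the processing, but its size moved. It ran from 0.51 to 1.25 in wt BMDM, from 0.77 to 1.96 with MK2 deleted and from 0.71 to 1.67 with both deleted. With only single arrays left out, the lowest values were 0.98, 1.48 and 1.24.

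*Pdcd1lg2* and *Slamf1* were detected on 1 and 3 of the 23 arrays, respectively, so neither is given a fold change. *Pdcd1lg2*, the second PD-1 ligand, lay between 1.80 and 4.02 on all arrays. It was the gene called lower after LPS in MK2-/- BMDM (adjusted p = 0.0269), where none of the 7 arrays was above background. *Slamf1* lay between 1.72 and 4.91 and was called in no comparison.

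Promoters of 6 of the 10 genes were in the RefSeq table of GRCm38.p6, which holds 250 bases before and 50 bases after each transcription start. They were searched on both strands for the NF-κB consensus, the interferon-stimulated response element core GAAANNGAAA, the AP-1 site TGANTCA and the interferon-gamma activated site TTCNNNGAA, which are bound by factors known to act downstream of LPS. The following 4 are shown because *Cd80* and *Slamf7* held an AP-1 match, *Cd274* was induced without a match, and *Pdcd1lg2*, detected on 1 array, held an NF-κB match. Capitals mark the matches, and each sequence runs 5′ to 3′ on the strand of the gene.
*Cd80*, chr16:38458683-38458982, plus strand: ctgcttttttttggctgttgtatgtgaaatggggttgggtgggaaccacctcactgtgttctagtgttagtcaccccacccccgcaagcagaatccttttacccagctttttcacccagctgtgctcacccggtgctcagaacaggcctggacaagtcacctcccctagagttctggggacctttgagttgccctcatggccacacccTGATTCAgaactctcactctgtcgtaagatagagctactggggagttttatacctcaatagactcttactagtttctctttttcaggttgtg
*Slamf7*, chr1:171648950-171649249, minus strand: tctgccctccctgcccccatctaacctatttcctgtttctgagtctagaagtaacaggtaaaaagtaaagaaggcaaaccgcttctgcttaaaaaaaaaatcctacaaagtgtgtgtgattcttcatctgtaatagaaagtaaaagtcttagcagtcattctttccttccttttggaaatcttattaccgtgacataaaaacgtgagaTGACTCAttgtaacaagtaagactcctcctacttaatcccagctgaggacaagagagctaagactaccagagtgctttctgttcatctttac
*Cd274*, chr19:29367188-29367487, plus strand: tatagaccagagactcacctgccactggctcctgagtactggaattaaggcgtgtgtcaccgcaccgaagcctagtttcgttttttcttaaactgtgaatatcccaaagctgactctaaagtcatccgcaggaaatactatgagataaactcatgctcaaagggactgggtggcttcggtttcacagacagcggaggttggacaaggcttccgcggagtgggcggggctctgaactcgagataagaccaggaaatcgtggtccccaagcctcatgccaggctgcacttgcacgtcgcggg
*Pdcd1lg2*, chr19:29410669-29410968, plus strand: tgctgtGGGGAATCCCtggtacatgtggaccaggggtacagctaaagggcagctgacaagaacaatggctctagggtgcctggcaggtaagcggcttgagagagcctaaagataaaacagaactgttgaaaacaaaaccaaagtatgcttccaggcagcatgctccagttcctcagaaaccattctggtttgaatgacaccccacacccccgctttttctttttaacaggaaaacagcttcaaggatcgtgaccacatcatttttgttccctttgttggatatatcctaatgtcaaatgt
In both *Cd80* and *Slamf7* the AP-1 match covered bases 209 to 215 of the window, beginning 42 bases before the start. *Pdcd1lg2* held the NF-κB match at bases 7 to 16, and *Cd274*, *Cd38* and *Slamf1* held none of the 4 motifs in this window. Among all 32851 promoters of this length, 7.81% held the AP-1 site, 4.51% the NF-κB consensus, 3.44% the interferon response core, 8.3% the interferon-gamma activated site and 21.8% at least 1 of them. A match is a run of letters and does not show binding.

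The loss of both kinases was compared with wt in the LPS-treated cells. After LPS, 1 of the 10 genes, *Cd86*, was called higher in MK2/3-/- than in wt BMDM, whereas 0.773% of all genes were called higher and 1.64% in either direction. *Cd86* was 0.95 ± 0.23 higher on the log2 scale (1.93-fold, adjusted p = 0.0459), and each of the 4 MK2/3-/- arrays, from 12.40 to 13.01, lay above the 4 wt arrays, from 11.19 to 12.30 (exact permutation p = 0.0286, two-sided, the smallest that 4 against 4 arrays allow). The adjusted p was 0.349 when only these 2 groups entered the fit and 0.0529 with the age of the mice as a covariate. Leaving out any 1 of 16 of the 23 arrays also ended the call, with an adjusted p from 0.0520 to 0.178. Dendritic cells carry CD86 as well. The summed linear signal of the 6 dendritic cell markers ranged from 6826 to 15619 in MK2/3-/- and from 3556 to 10347 in wt BMDM after LPS, with 4 detected on each of these arrays, and that of the macrophage markers from 420490 to 629177 and from 459450 to 562786. The mean log2 signal of *Itgax* (13.04 against 11.82) and *Flt3* (6.11 against 5.63) was higher in MK2/3-/- BMDM. That of *Zbtb46* (10.06 against 10.14) and *Ccr7* (8.32 against 8.87) was lower, and *Xcr1* and *Clec9a* were not detected. A linear sum mostly follows the brightest marker, *Itgax*. None of the markers was called between these groups, and their part in the result was not tested.

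**Figure D4:**
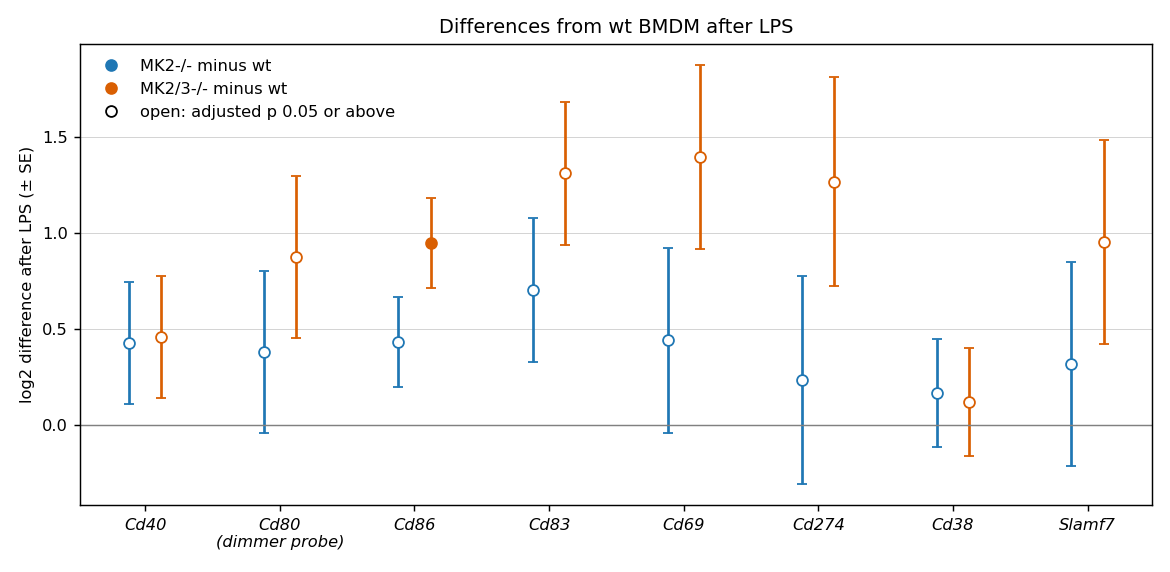
Log2 difference from wt BMDM after LPS (± SE of the fit) for the 8 detected genes, for MK2-/- and MK2/3-/- BMDM, with filled points for an adjusted p under 0.05. All 8 differences of MK2/3-/- BMDM are above 0, from 0.12 for *Cd38* to 1.39 for *Cd69*, and that of *Cd86* is the filled one.

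The other differences between MK2/3-/- and wt BMDM after LPS did not pass the adjustment. At an unadjusted p under 0.05 (limma) the count, with *Cd86* included, was 4 of the 10 genes, against 13.6% of all genes. As the genes were chosen with earlier results of these data known, this count describes the set. *Cd83* was 1.31 ± 0.37 higher (adjusted p = 0.0893), with all MK2/3-/- arrays above all wt arrays. *Cd69* was 1.39 ± 0.48 higher (adjusted p = 0.177) and *Cd274* 1.27 ± 0.54 higher (adjusted p = 0.305), and for both genes the lowest MK2/3-/- array lay within the wt arrays. Between arrays of the same replicate number the difference was positive in 4 of 4 for either gene, from 1.00 to 2.18 for *Cd69* and from 1.04 to 1.84 for *Cd274*. It was positive in 4 of 4 also for *Cd40*, *Cd83*, *Cd86* and the dimmer probe of *Cd80*, and in 3 of 4 for *Cd38* and *Slamf7*. The share over all genes was not computed. With the number as a block, which rests on numbers not stated to mark shared experiments, *Cd69* was called (adjusted p = 0.0360) and *Cd274* was not. Each number also had its own column on all slides, so that number and column cannot be told apart. *Slamf7* differed by 0.95 ± 0.53, the dimmer probe of *Cd80* by 0.88 ± 0.42 and its brighter probe by 0.29 ± 0.26. *Cd40* differed by 0.46 ± 0.32 and *Cd38* by 0.12 ± 0.28. The difference was positive for 9 of the 10 genes, among them *Slamf1*, which is not above background, and its median was 0.91, compared with 0.0065 over all genes. The arrays of 2 of the 10 genes, *Cd86* and *Cd83*, did not overlap, as was the case for 5.81% of all genes.

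The loss of MK2 alone was compared with wt in the same way. None was called between MK2-/- and wt BMDM after LPS (0.0308% of all genes called), the arrays of none were without overlap (3.72% of all genes), none had an unadjusted p under 0.05 (7.5% of all genes), and the differences of the 8 detected genes ranged from 0.16 ± 0.28 for *Cd38* to 0.70 ± 0.37 for *Cd83*. *Cd86* was 0.43 ± 0.23 higher and *Cd40* 0.43 ± 0.32 higher. Between MK2/3-/- and MK2-/- BMDM after LPS none was called either (0.162% of all genes), and 1, *Cd86*, had an unadjusted p under 0.05 (7.91% of all genes), with a difference of 0.52 ± 0.23 (limma, adjusted p = 0.596). For 1 gene, *Cd83*, the 4 MK2/3-/- arrays lay above the 4 MK2-/- arrays (0.61 ± 0.37, adjusted p = 0.733, exact permutation p = 0.0286), where the arrays of 5.14% of all genes did not overlap in 1 direction or the other, and for *Cd69* and *Cd274* the differences were 0.95 ± 0.48 and 1.04 ± 0.54. These comparisons share their LPS-treated groups and are not independent of each other.

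Without LPS, none of the 10 genes was called between genotypes by limma, with 0.00769% of all genes called for MK2-/- against wt, 0.0769% for MK2/3-/- against wt and 0.0462% for MK2/3-/- against MK2-/-. At an unadjusted p under 0.05 the counts were 0, 1 and 0, against 3.42%, 4.63% and 3.55% of all genes. *Cd69* was 0.76 ± 0.52 higher in MK2-/- and 0.99 ± 0.48 higher in MK2/3-/- than in wt medium, and its arrays did not overlap in either comparison (exact permutation p = 0.0286 in both). The arrays of 2 genes, *Cd69* and *Pdcd1lg2*, did not overlap between MK2-/- and wt medium (7.03% of all genes), those of 1, *Cd69*, between MK2/3-/- and wt medium (4.05%), and those of 1, *Slamf1*, between MK2/3-/- and MK2-/- medium (6.42%). *Cd83* was 0.98 ± 0.37 higher in MK2/3-/- than in wt medium (limma, adjusted p = 0.958), with overlapping arrays.

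The size of the LPS response itself was not shown to differ between genotypes for any of the 10 genes, and 0.00385%, 0.0115% and 0% of all genes were called for MK2-/- against wt, MK2/3-/- against wt and MK2/3-/- against MK2-/-. At an unadjusted p under 0.05 the counts of limma were 1, 1 and 0, against 1.91%, 4.54% and 2.88% of all genes. These were *Pdcd1lg2*, which was not above background, and the dimmer probe of *Cd80*, whose increase was 1.69 ± 0.60 larger in MK2/3-/- than in wt BMDM (limma, adjusted p = 0.827). On the brighter probe of *Cd80* the corresponding difference was 0.17 ± 0.37. For *Cd40* it was 0.21 ± 0.45, for *Cd69* 0.41 ± 0.68, for *Cd83* 0.33 ± 0.53 and for *Cd274* 1.02 ± 0.77.

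Other molecules of the same pathways were followed through lists. Over all genes, 8.26%, 8.5% and 11.9% rose with LPS and 17.2%, 18.6% and 24.9% were called in either direction in wt, MK2-/- and MK2/3-/- BMDM. Of 6 co-stimulatory ligands of the TNF family, 5 rose in each genotype. *Tnfsf9*, the ligand of 4-1BB, rose by 7.87 ± 0.37 in wt BMDM. *Tnfsf4*, the OX40 ligand, was not well above background on any medium array and was at least 69.7-fold higher after LPS in wt BMDM (group means 1.97 and 9.63, adjusted p = 5.1e-09), where each medium signal was raised to the lowest detected signal of its array. *Tnfsf18*, the GITR ligand, was the list gene called between genotypes, other than the deleted kinases. It was called between MK2/3-/- and wt BMDM after LPS, where 1.64% of all genes were called. LPS-treated wt BMDM read 4.11, 4.50, 4.43 and 3.61, MK2-/- BMDM 4.17, 5.48, 5.17 and 5.42 and MK2/3-/- BMDM 6.78, 7.56, 6.69 and 4.84. All MK2/3-/- arrays lay above all wt arrays, 1 of which was not above background, and the difference was 2.31 ± 0.41 (adjusted p = 0.00639).

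Of 11 signal transducers of CD40, 9 rose and 2 fell in wt BMDM, and 8 rose and 1 fell in either knockout. *Traf1*, an adaptor bound by activated CD40, rose by 5.09 ± 0.27 and *Nfkb2*, the precursor of the non-canonical NF-κB subunit p52, by 2.84 ± 0.20 in wt BMDM. *Map3k14*, the kinase that activates this non-canonical route, fell by 0.90 ± 0.20 and *Traf5* fell by 0.59 ± 0.18. None of the 11 was called between MK2/3-/- and wt BMDM after LPS, with a median difference of 0.14.

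Of 7 measured genes listed as B7 family beside the members, not all encode B7 ligands. Among these 7, 1 rose and 1 fell in wt and MK2-/- BMDM, and 3 rose and 1 fell in MK2/3-/- BMDM. *Icosl*, the ligand of ICOS, rose by 2.54 ± 0.40 and *Vsir*, the inhibitory ligand VISTA, fell by 1.05 ± 0.18 in wt BMDM. Of 5 genes listed beside *Cd69*, not all of which encode proteins that bind CD69, *S1pr1* fell by 2.18 ± 0.49, *S1pr2* fell by 1.34 ± 0.35 and *Clec2d* rose by 2.33 ± 0.46 in wt BMDM. Of 9 further SLAM genes, *Sh2d1b1*, which encodes an adaptor of SLAM receptors, fell by 2.14 ± 0.50 in wt BMDM and none was called higher. The group mean of *Slamf8* went from 7.22 in wt medium to 9.37 after LPS without a call. In MK2/3-/- BMDM 1 of the 9 was called higher and 1 lower. None of 8 genes of MHC class II presentation was called in wt BMDM, with a median change of -0.091, and of 6 NAD and purine ectoenzyme genes *Nampt*, which makes an NAD precursor, rose by 0.92 ± 0.27. Of 6 T cell receptors for the members, such as *Cd28* and *Pdcd1*, none was called in wt BMDM. In all these lists no gene was called between MK2/3-/- and wt BMDM after LPS, apart from *Tnfsf18* (1.64% of all genes called).

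For the members whose 6 group means spanned at least 2 log2 units, the 3 genes with the nearest profile were sought among 13382 named genes detected on every array of at least 1 group. Likeness was measured as the root mean square difference of the 6 centred group means, as a description without a test, since all profiles share the same arrays. *Cd40* was nearest to *Rsad2* (0.18), *Cxcl10* (0.19) and *Socs3* (0.22), and *Cd274* to *Tgtp2* (0.074), *Calhm6* (0.14) and *Gbp2* (0.18). *Cd69* was nearest to *Gbp5* (0.27), *Socs1* (0.35) and *Dusp2* (0.37), and *Cd83* to *Ifit1bl1* (0.19), *Tnip3* (0.19) and *Grhl1* (0.23). *Slamf7* was nearest to *Cdk12*, *Samsn1* and *Srgn*, with 0.18 for each. The dimmer probe of *Cd80* was nearest to *Cass4* (0.18), *Gypc* (0.19) and *Nos2* (0.20). Among the members with a span of at least 2 the nearest 2 were *Cd83* and *Cd274*, 0.45 apart, followed by *Cd40* and *Cd69*, 0.51 apart.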

How the data were processed

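RNA of 23 BMDM samples was measured with one-colour Agilent arrays. The intensity that the authors deposited for each spot is linear, background-subtracted and gradient-corrected by Feature Extraction 11.0.1.1, per the file headers, with no gradient fit on 2 arrays. The deposited log2 table, relative to the median of each probe, served as an alternative. It correlated with the values used here at r = 1.00, and its column medians ran from -0.019 to 0.023. Spots flagged as outliers were set missing, intensities were log2 transformed, replicate spots averaged and arrays quantile normalized. Of 32869 probes with an NCBI accession, the one most induced by LPS in wt cells stood for its gene. Names came from a RefSeq table of GRCm38.p6.

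All arrays entered 1 model of 6 groups (lmFit and eBayes of limma 3.58.1, R 4.3.3), with p-values adjusted over all genes at 0.05, two-sided. Figures used Python 3.11.15 with matplotlib 3.10.9. The model and the t-test were run on simulated arrays with independent values, and the choice of probe on a small constructed case. Normalization and the relation between arrays of the same culture were not simulated. The number of arrays limits the precision. By replicate, letter and age, 11 of 12 cultures gave both a medium and an LPS array and MK2-/- culture 3 an LPS array alone, the last MK2-/- medium array being from culture 4. After removal of group means, these 11 pairs correlated with r from 0.067 to 0.566 over all genes (10 above 0.1) and from 0.359 to 0.776 over 12567 genes detected on all arrays. Both arrays of a pair lay in the same column of a slide, so that culture and column cannot be told apart. The sources describe independent experiments, but do not say whether each culture came from a mouse of its own, so p-values measure the spread between these samples. Named genes are the members, the deleted kinases, the list genes with the 2 largest rises and falls in wt BMDM or called between genotypes, and the 3 nearest profiles. Members and lists were chosen with earlier results of these data known.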

Additional observations from a re-analysis of the deposited data

Results flagged for a closer look

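Of 55 groups of 4 arrays examined for the 10 genes, counting both probes of *Cd80*, 5 held an array far from the other 3, where chance gives about 1 in 20. *Cd274* read 7.96 on the fourth MK2/3-/- medium array, against 8.82 to 8.93 on the others. *Cd38* read 5.73 on the fourth MK2-/- LPS array, against 6.64 to 6.80. The brighter probe of *Cd80* read 12.12 on the fourth wt medium array, against 12.55 to 12.58. *Pdcd1lg2* read 3.33 on the first MK2-/- LPS array, against 1.90 to 1.94, and *Slamf1* read 4.34 on the second, against 1.73 to 1.88, with neither gene above background on these arrays.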

How the results depend on the processing

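The count of members called between MK2/3-/- and wt BMDM after LPS, 1 in the report, was 2 under 75th percentile scaling (*Cd83* and *Cd86*) and 2 with the experiment number as a replicate block (*Cd69* and *Cd86*). It was 0 with only the groups compared in the fit, 0 by the methods' t-test after Benjamini-Hochberg, 0 with age as a covariate, 0 without the arrays lacking a gradient fit and 0 without the arrays of lowest and highest detection. Leaving out single arrays gave 0 to 2. The *Cd86* call was lost without wt LPS replicate 1, 3 or 4, wt medium replicate 1 or 2, MK2-/- LPS replicate 1, 2 or 3, MK2-/- medium replicate 1 or 2, MK2/3-/- LPS replicate 1, 2 or 3, or MK2/3-/- medium replicate 2, 3 or 4 (adjusted p 0.0520 to 0.178). *Cd69* was called without MK2/3-/- LPS replicate 4 (adjusted p = 0.0318), and *Cd83* without wt medium replicate 2 (adjusted p = 0.0301). The *Cd86* rise with LPS was called in wt BMDM without wt LPS replicate 1 or wt medium replicate 4, and in MK2-/- BMDM without wt LPS replicate 2 or MK2-/- medium replicate 3 (adjusted p 0.0288 to 0.0475), and in both under 75th percentile scaling, normexp background correction, the detection filter and either block. The rise of *Slamf7* was not called in MK2-/- BMDM without MK2-/- medium replicate 1 (adjusted p = 0.0611), nor in wt BMDM by the methods' t-test (0.0724). The cause of these changes was not tested.

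With the probe of highest mean signal *Cd80* changed after LPS by -1.43 in wt BMDM, by -0.91 with MK2 deleted and by -1.25 with both kinases deleted. After LPS the uncalled *Cd38* difference of MK2/3-/- from wt BMDM ran from -0.036 without wt LPS replicate 4 to 0.30 as single arrays were left out, and was -0.015 without MK2/3-/- LPS replicate 2. The call of *Pdcd1lg2* was lost under 75th percentile scaling (adjusted p = 0.107), by the methods' t-test (0.0873) and without any of 5 MK2-/- arrays. Scaling to the 75th percentile shifted the median of all genes by 0.15 in the comparison of MK2/3-/- with wt after LPS. Over all genes that comparison called 427, and 608 of 16315 with the detection filter, 6 with only the groups compared, 5 by the methods' t-test and 950 with the experiment number block. The sources do not say that a replicate number marks the same experiment in every genotype. Of array pairs of different genotypes, 29 of 44 with the same number (median r 0.144) and 22 of 132 with different numbers (median r -0.059) correlated above 0.1. Of 23 arrays, 13 correlated best with their own number. Each number also had its own column on all slides, so that shared experiments and column position cannot be told apart. The culture block changed no other member call than those given for *Cd86*. The probe of highest mean signal and the removal of arrays by detection were chosen after seeing the data. The methods' t-test was not run for differences in response. Signal near background limits *Pdcd1lg2*, *Slamf1* and *Tnfsf18*.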
